A study of Homo sapiens with 12 samples.

Results

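The genes described here are 10 receptors through which blood cytokines act: IL9R, CSF2RA, CSF2RB, CSF3R, CSF1R, IL3RA, IL5RA, KIT, FLT3 and EPOR. They were taken by symbol from an mRNA table of 19659 genes, and the FPKM of their 45 transcripts (fragments per kilobase of transcript, scaled to library size) was summed per gene. The receptors were chosen by their role, with the FPKM of these same 6 libraries and the wide gap in IL9R already known, so their own values are a description and support no test. All samples carry the cell line label HEL, the name of a line from a human erythroleukaemia. One group was kept with 40 µg/ml DMAG, a methylated ellagic acid glucoside from the plant Sanguisorba, for 3 days. The other carries the label Control, with no vehicle named. There were 3 libraries in each group for RNA-Seq and 3 in each for small RNA, and nothing says that they came from separate cultures.

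Cytokine receptors sit in the cell membrane and carry a signal from a secreted protein to kinases inside the cell. IL9R, CSF2RA, CSF2RB, CSF3R, IL3RA, IL5RA and EPOR lack a kinase of their own and work through bound Janus kinases (JAKs), which phosphorylate STAT transcription factors. KIT, FLT3 and CSF1R are receptor tyrosine kinases, with the kinase in the receptor chain itself. The set of receptors on a blood progenitor is known to change as it matures towards granulocytes, monocytes, red cells or platelets.

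The markers of the labelled line were checked first. GP9, a platelet glycoprotein, was listed at 0 in all 6 RNA-Seq libraries, and GATA1 reached at most 0.142 FPKM. The 12 erythroid and megakaryocytic markers summed to 1.62 to 8.06 FPKM with DMAG and to 1.37 to 2.00 FPKM in controls, which goes against the label. The highest of these sums was that of DMAG replicate 3, where the red cell enzyme ALAS2 stood at 4.04 FPKM. ALAS2 was at 0 in the other DMAG libraries and at most 0.0105 FPKM in controls. HBG2, of the same list, stood at 1.69 FPKM in DMAG replicate 3, at 0 in the other DMAG libraries and at most 0.0475 FPKM in controls. The highest GATA1 value also came from DMAG replicate 3. That library alone was also above 0 for genes of other kinds, such as FGFR2 (0.207 FPKM), CD3D (0.0610 FPKM) and EGFR (0.0399 FPKM). Other libraries had such traces too, as PRLR in DMAG replicate 2 and GHR in control replicate 1. Some genes of granules, unlike the erythroid and megakaryocytic markers, were high. The 6 neutrophil granule markers summed to 1169 to 1380 FPKM with DMAG and to 2135 to 2298 FPKM in controls. The 9 eosinophil, basophil and mast cell markers, mostly PRG2 and CLC, summed to 2155 to 2598 FPKM with DMAG and 1816 to 2297 FPKM in controls. Of these 9, CPA3, HDC and TPSAB1 were at most 0.0633, 0.177 and 0.204 FPKM in any library, and MS4A2 at most 1.88 FPKM. The 6 monocyte markers, mostly LYZ, summed to 426 to 475 FPKM with DMAG and 166 to 171 FPKM in controls, and 6 lymphoid markers to 7.79 to 8.38 FPKM with DMAG and 7.98 to 8.57 FPKM in controls. How many reads lie behind an FPKM value is unknown, and in bulk RNA fewer cells of a type and less RNA per cell cannot be told apart.

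IL9R, the ligand-binding chain of the interleukin-9 receptor, had the widest gap between the groups among the 10 receptors. Its level was 0.687, 0.683 and 0.616 FPKM in the DMAG libraries and 9.02, 8.75 and 7.96 FPKM in the control libraries. All DMAG libraries thus lay far below all control libraries, and the libraries of each group lay close together. The means were 0.662 ± 0.0394 FPKM with DMAG and 8.58 ± 0.552 FPKM in controls (SD, n = 3 each), 13.0-fold lower with DMAG. On log2(FPKM + 1), the scale used below for every log2 change, the difference was -2.53 (SE 0.0668), the second lowest of 10394 genes tested. A log2 change on this scale understates the change of low genes.

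**Figure D1:**
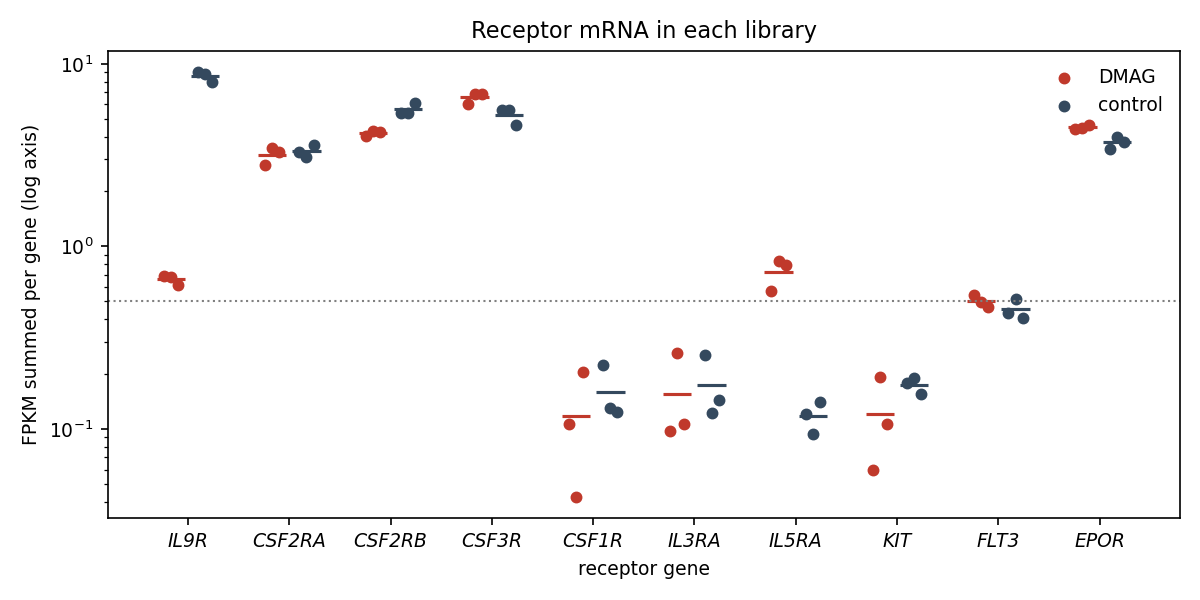
FPKM of each receptor gene (log axis) in the 3 DMAG libraries (red, left of each pair) and the 3 control libraries (dark, right); points are libraries, short lines are means and the dotted line marks 0.5 FPKM, the level needed for a test. The IL9R points lie at 0.616 to 0.687 FPKM with DMAG and at 7.96 to 9.02 FPKM in controls, and the IL5RA points lie above those of controls.

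Both annotated transcripts of IL9R were lower. ENST00000244174 was at 0.676, 0.683 and 0.189 FPKM with DMAG and at 6.19, 6.33 and 6.14 FPKM in controls, and ENST00000369423 was at 0.0102, 0 and 0.427 FPKM with DMAG and at 2.84, 2.42 and 1.82 FPKM in controls. The first made up 72.7 ± 4.30% of the gene in controls. With DMAG its share was 76.4 ± 39.6%, a spread set by DMAG replicate 3, where the second transcript was the higher one. The gene has 6 pseudogenes in the RefSeq table of GRCh38.p14, and how reads shared with such copies were counted is not given in the sources used here, so the absolute level of IL9R is uncertain. IL9R, CSF2RA and IL3RA lie in the regions that chromosomes X and Y share, where reads cannot be assigned to either chromosome.

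The promoters of 9 of the 10 genes were found in RefSeq (GRCh38.p14, 250 bases before to 50 after the start of a transcript), with alternative starts for CSF3R and CSF1R, so 11 promoters in all. Shown are those of the receptors with the widest differences in each direction, IL9R (chrX:155997446-155997745, plus strand) and IL5RA (chr3:3110325-3110624, minus strand), and that of IL3RA (chrX:1336535-1336834, plus strand), the one of the 11 that held a STAT motif. Capitals mark matches on either strand to 6 motifs: TTCNNNGAA for STATs, GAGGAAG for PU.1, TTGCNNAA for C/EBP proteins, TGTGGT for RUNX factors, AGATAA for the GATA family and GCGTG for the aryl hydrocarbon receptor.
IL9R: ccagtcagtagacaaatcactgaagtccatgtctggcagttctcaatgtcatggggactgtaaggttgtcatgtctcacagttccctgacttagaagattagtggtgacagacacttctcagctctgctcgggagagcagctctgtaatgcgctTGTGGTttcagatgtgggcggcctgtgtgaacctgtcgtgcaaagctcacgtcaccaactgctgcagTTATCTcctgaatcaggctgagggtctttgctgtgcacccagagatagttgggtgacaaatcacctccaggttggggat
IL5RA: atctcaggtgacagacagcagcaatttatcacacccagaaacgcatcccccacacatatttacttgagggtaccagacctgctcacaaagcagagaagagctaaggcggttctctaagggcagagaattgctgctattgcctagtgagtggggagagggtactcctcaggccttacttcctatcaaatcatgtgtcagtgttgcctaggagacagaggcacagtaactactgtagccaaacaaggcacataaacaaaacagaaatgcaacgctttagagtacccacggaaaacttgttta
IL3RA: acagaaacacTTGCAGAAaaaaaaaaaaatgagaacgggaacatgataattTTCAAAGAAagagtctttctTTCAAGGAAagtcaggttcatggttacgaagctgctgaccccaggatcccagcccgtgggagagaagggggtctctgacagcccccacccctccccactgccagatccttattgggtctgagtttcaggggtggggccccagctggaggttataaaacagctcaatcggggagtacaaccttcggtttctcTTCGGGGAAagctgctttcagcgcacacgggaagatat
The IL9R promoter held 1 RUNX match, starting 96 bases before the transcript start, and 1 GATA match, starting 29 bases before it. The IL5RA promoter held none of the 6 motifs, and that of IL3RA held 3 STAT matches and 1 C/EBP match; none of the matches shown overlap. Among 35093 RefSeq promoters of this length, 13.1% held the RUNX motif, 10.3% the GATA motif, 7.66% the STAT motif and 10.5% the C/EBP motif. PU.1, a regulator of myeloid receptor genes, had a match in 3 of the 11 receptor promoters (CSF2RA, CSF3R and CSF1R, 1 start of each), against 13.6% of all promoters. The aryl hydrocarbon receptor motif was in 3 of the 11, against 36.5% of all, and not in that of IL9R. A match describes letters in this window and shows no binding.

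Next came the receptors that share CSF2RB, the common beta chain of the receptors for GM-CSF, interleukin-3 and interleukin-5. CSF2RB was at 4.01, 4.26 and 4.24 FPKM with DMAG and at 5.40, 5.41 and 6.08 FPKM in controls, with no overlap (log2 difference -0.36, SE 0.0639). Its main transcript ENST00000403662 carried this, at 3.61 ± 0.0717 FPKM with DMAG and 5.11 ± 0.275 FPKM in controls, while ENST00000406230 averaged 0.537 ± 0.130 FPKM with DMAG and 0.481 ± 0.128 FPKM in controls. CSF2RA, the GM-CSF-binding chain, was at 2.78, 3.46 and 3.31 FPKM with DMAG and at 3.30, 3.11 and 3.57 FPKM in controls. The groups overlapped, and the transcripts of CSF2RA split differently by library. ENST00000381500 made up 40.6% of the gene in DMAG replicate 2 and was at 0 in all other libraries. The share of ENST00000381529 was 27.4% to 64.1% with DMAG and 24.7% to 72.6% in controls. IL3RA, the interleukin-3-binding chain, was low in all libraries, at 0.0977, 0.262 and 0.106 FPKM with DMAG and 0.256, 0.122 and 0.144 FPKM in controls.

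IL5RA, the interleukin-5-binding chain known from eosinophils, basophils and their precursors, went the other way from CSF2RB. It was at 0.568, 0.830 and 0.789 FPKM with DMAG and at 0.121, 0.0935 and 0.140 FPKM in controls. Every DMAG library lay above every control library, 6.16-fold by the means (0.729 ± 0.141 FPKM with DMAG and 0.118 ± 0.0236 FPKM in controls). The values are low and were spread over 7 of its 10 transcripts, and the leading one was ENST00000446632 in DMAG replicate 1 and ENST00000418488 in DMAG replicates 2 and 3. ENST00000456302 was above 0 in DMAG replicate 2 alone, at 0.370 FPKM. Of the eosinophil, basophil and mast cell markers, 6 were tested, beside 48.6% called (limma adjusted p under 0.05) over all genes. CLC, RNASE2 and RNASE3 rose, EPX, the eosinophil peroxidase, fell (39.1 FPKM with DMAG and 79.6 FPKM in controls), and PRG2 and MS4A2 did not pass. The part of these cells' markers in the IL5RA difference was not tested. CSF2RB stood at 1.16, 0.937 and 1.01 times the summed level of the 3 binding chains with DMAG and at 1.47, 1.63 and 1.58 times that level in controls.

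CSF3R, the G-CSF receptor of neutrophils and their precursors, was at 6.005, 6.83 and 6.81 FPKM with DMAG and at 5.56, 5.59 and 4.63 FPKM in controls. The groups did not overlap, but the lowest DMAG library lay only just above the highest control library (log2 difference 0.27, SE 0.0861). Its transcripts split differently by library and not by group: ENST00000361632 was at 0.561 FPKM in DMAG replicate 1 and 0.395 FPKM in control replicate 3, against 2.95 to 3.97 FPKM in the other 4 libraries. In those same 2 libraries alone, ENST00000373104 and ENST00000331941 were above 0. Of the neutrophil granule genes, MPO, PRTN3, ELANE and CTSG fell with DMAG and AZU1 and CEBPE rose, beside 48.6% called over all genes. The part of these granule genes in the CSF3R difference was not tested.

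**Figure D2:**
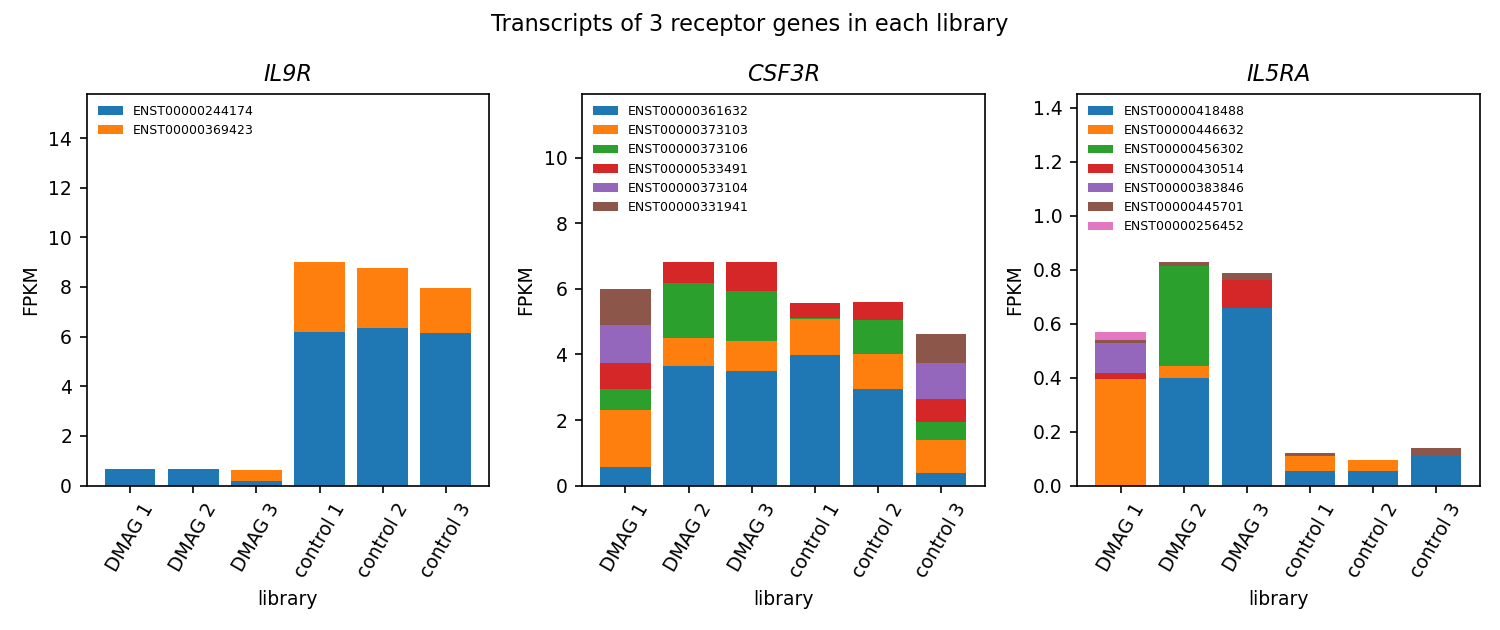
FPKM of the transcripts of IL9R, CSF3R and IL5RA stacked per library, DMAG libraries on the left and control libraries on the right; each panel has its own axis from 0, and transcripts at 0 in all libraries are left out. The 2 IL9R transcripts are both low with DMAG, while the split of CSF3R in DMAG replicate 1 resembles that of control replicate 3.

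EPOR, the erythropoietin receptor of red cell precursors, was at 4.37, 4.47 and 4.63 FPKM with DMAG and at 3.43, 3.96 and 3.75 FPKM in controls. The groups did not overlap (log2 difference 0.22, SE 0.0643). The transcript ENST00000222139 was at 2.19 ± 0.164 FPKM with DMAG and 1.48 ± 0.112 FPKM in controls, and ENST00000592375 at 2.30 ± 0.295 FPKM with DMAG and 2.24 ± 0.306 FPKM in controls. DMAG replicate 3, the library with ALAS2, had the highest EPOR value; without it the log2 difference was 0.20.

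The receptor tyrosine kinases were low in both groups. FLT3, the receptor of early progenitors, was at 0.540, 0.496 and 0.465 FPKM with DMAG and at 0.432, 0.518 and 0.407 FPKM in controls. KIT, the stem cell factor receptor, was at 0.0599, 0.194 and 0.107 FPKM with DMAG and at 0.179, 0.192 and 0.156 FPKM in controls. CSF1R, the M-CSF receptor of monocytes and macrophages, was at 0.106, 0.0427 and 0.206 FPKM with DMAG and at 0.225, 0.130 and 0.124 FPKM in controls. The groups overlapped for each of these 3. The monocyte surface marker CD14 was also low, at 0.361 to 0.503 FPKM with DMAG and at 0 to 0.264 FPKM in controls.

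In the order of levels with DMAG, CSF3R came first, followed by EPOR, CSF2RB, CSF2RA, IL5RA, IL9R, FLT3, IL3RA, KIT and CSF1R. The ranges of neighbours were apart except for IL5RA against IL9R and among IL3RA, KIT and CSF1R. In controls the order was IL9R, CSF2RB, CSF3R, EPOR, CSF2RA, FLT3, KIT, IL3RA, CSF1R and IL5RA, where the ranges overlapped for CSF2RB against CSF3R, for EPOR against CSF2RA and for each neighbouring pair from KIT to IL5RA. IL9R thus made up 3.21 ± 0.339% of the summed receptor FPKM with DMAG and 31.1 ± 1.43% in controls. The sum of the 10 receptors was 20.7 ± 1.26 FPKM with DMAG and 27.6 ± 0.533 FPKM in controls, and without IL9R it was 20.0 ± 1.28 FPKM with DMAG and 19.0 ± 0.118 FPKM in controls.

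Of the 10 receptors, 5 reached a mean of 0.5 FPKM over all libraries and entered the fit across all genes (limma, adjusted p under 0.05). IL9R and CSF2RB were called lower and CSF3R and EPOR higher, and CSF2RA was not called. Across all 10394 genes tested, 48.6% were called, 22.4% higher and 26.1% lower. Since this contrast chose the receptors, nothing is read from their count. Their calls and p-values, held or lost, only describe these values. The calls of CSF3R and EPOR did not hold when single libraries were left out: that of CSF3R was lost without any library but DMAG replicate 1, and that of EPOR without any but control replicate 2. Both were also lost with no filter on low values (adjusted p = 0.069 and 0.060 by limma) and in the most abundant transcript alone (0.95 and 0.87). The FPKM of the groups did not overlap in 59.5% of the genes tested and in 4 of the 5 receptors tested. The 5 receptors below the limit were IL5RA, FLT3, IL3RA, KIT and CSF1R.

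The genes most like IL9R over the 6 libraries, by Pearson correlation of log2(FPKM + 1), were MYO1G, a myosin of blood cells, TOE1, an RNA exonuclease, ARSB, a lysosomal sulfatase, CA2, a carbonic anhydrase, and ANO6, a membrane scramblase. Their r lay between 0.9995 and 0.9997, but 342 of 10393 genes had an r over 0.99, since any gene that is well below its control level with DMAG and has little spread within the groups does. MYO1G was at 30.1 ± 0.254 FPKM with DMAG and 69.2 ± 1.69 FPKM in controls, and CA2 at 73.0 ± 1.98 FPKM with DMAG and 187 ± 4.14 FPKM in controls.

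The other genes of these pathways were taken from fixed lists, which were drawn up with earlier results of these data known. Among 161 such genes 96 were tested, of which 44 rose, 21 fell and 31 did not pass, beside 48.6% called over all genes, with a median log2 change of 0.17 against -0.01 over all genes tested. Among 36 other cytokine receptor chains, 18 were tested, and 12 rose and 2 fell (median 0.34). IL2RG, the common gamma chain that pairs with IL9R, rose: it was at 43.2, 59.9 and 44.1 FPKM with DMAG and at 30.3, 23.9 and 22.3 FPKM in controls (log2 change 0.91, SE 0.161, limma adjusted p = 0.0046). All DMAG libraries were above all control libraries, the opposite order to IL9R, and IL2RG stood at 62.9, 87.7 and 71.5 times the IL9R level with DMAG and at 3.36, 2.73 and 2.80 times it in controls.

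Other receptor chains also rose. IL4R, which shares the gamma chain, was at 16.0 ± 0.740 FPKM with DMAG and 7.18 ± 0.908 FPKM in controls (adjusted p = 2.9e-04 by limma). IL6R, the interleukin-6-binding chain, was at 14.8 ± 0.463 FPKM with DMAG and 6.30 ± 0.338 FPKM in controls (2.35-fold). IL11RA, the interleukin-11-binding chain, was 2.99-fold higher, and IL18RAP, a chain of the interleukin-18 receptor, 5.08-fold higher. IL12RB2 and IL27RA, chains of the interleukin-12 and interleukin-27 receptors, fell 1.48-fold and 1.47-fold. For IL2RG, IL4R and IL12RB2 the most abundant transcript by itself did not pass (log2 0.64, 0.50 and -0.49, adjusted p = 0.25, 0.58 and 0.076 by limma).

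Among 22 other receptor tyrosine kinases 7 were tested, of which 2 rose, 3 fell and 2 did not pass (median -0.20). The share called over all genes was 48.6%. FGFR1, a fibroblast growth factor receptor, was at 6.92 ± 0.348 FPKM with DMAG and 1.82 ± 0.156 FPKM in controls. ERBB2 rose 1.81-fold, a call lost without DMAG replicate 2 or 3 or control replicate 2 or 3 (adjusted p between 0.075 and 0.086 by limma, which also spans the replicate block). IGF1R, the IGF-1 receptor, was at 23.4 ± 3.12 FPKM with DMAG and 37.5 ± 2.08 FPKM in controls. FLT4 and INSR, the insulin receptor, fell 2.51-fold and 1.18-fold. The most abundant transcripts of FGFR1, IGF1R, FLT4 and INSR did not pass by themselves (adjusted p between 0.059 and 0.71 by limma), and that of ERBB2 was not tested. The log2 change was 1.38 for that transcript of FGFR1, against 1.49 for the gene, and -0.55 for that of INSR, against -0.23 for the gene. It was -0.19 for that of FLT4, against -0.76 for the gene, and 0.024 for that of IGF1R, against -0.67 for the gene.

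Ligands were scarce. IL9, CSF2 and IL3 were listed at 0 in all 6 libraries, and CSF3, CSF1, IL5 and IL34 were at most 0.184 FPKM in any. KITLG, the ligand of KIT, was at 9.11 ± 0.262 FPKM with DMAG and 8.93 ± 0.562 FPKM in controls (adjusted p = 0.72 by limma), and FLT3LG, that of FLT3, at 1.10 ± 0.257 FPKM with DMAG and 0.886 ± 0.0905 FPKM in controls (adjusted p = 0.29 by limma). These 2 were the ligands tested of 18, and 0 passed limma, beside 48.6% called over all genes. At an unadjusted p under 0.05, 0 passed too. EPO, the ligand of EPOR, was at 0.186, 0.409 and 0.338 FPKM with DMAG and at 0.0828, 0.0357 and 0.0508 FPKM in controls. It lay below the level tested, and passed only where no such level was set (adjusted p = 0.015 by limma), as did IL34 and IL13. In that fit 33.4% of all genes were called.

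**Figure D3:**
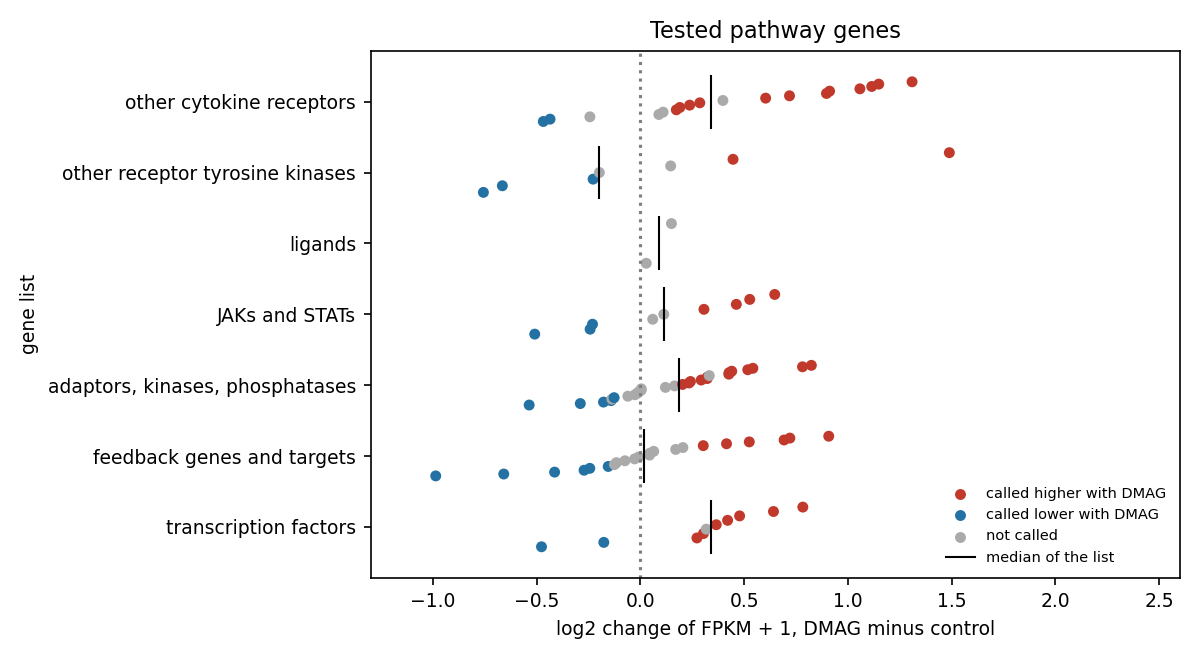
Log2 change of FPKM + 1 (DMAG minus control) of each tested gene in 7 pathway lists, coloured by its call in the limma fit across all genes; the black line is the median of a list. Most points of the other cytokine receptors lie right of 0 (12 called higher, 2 lower), while JAKs and STATs fall on both sides. The share called over all genes was 48.6%.

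Of 11 JAK and STAT genes 9 were tested, of which 4 rose, 3 fell and 2 did not pass (median 0.11). The share called over all genes was 48.6%. The 3 falls became 1 without DMAG replicate 1 or 3 or control replicate 2. JAK1 and JAK3 are the kinases bound by IL9R and IL2RG, and JAK2 serves CSF2RB and EPOR. JAK1 rose to 29.2 ± 1.17 FPKM with DMAG, against 23.4 ± 0.787 FPKM in controls, while JAK3 was listed at 0 in all libraries but DMAG replicate 3 (0.0933 FPKM). JAK2 was 1.20-fold lower, a call lost without DMAG replicate 1 or 3 or control replicate 2 or 3. Its most abundant transcript alone did not pass either (log2 -0.0097, adjusted p = 0.97 by limma). TYK2 was at 21.3 ± 3.33 FPKM with DMAG and 19.5 ± 0.631 FPKM in controls (adjusted p = 0.42 by limma).

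STAT3 rose to 47.2 ± 2.45 FPKM with DMAG, against 29.7 ± 0.430 FPKM in controls (adjusted p = 1.6e-04 by limma). The STAT5 pair, which acts downstream of the beta chain and EPOR, moved apart. STAT5A was at 1.79, 1.85 and 1.34 FPKM with DMAG and at 2.99, 2.30 and 3.06 FPKM in controls and fell 1.68-fold. STAT5B was at 16.8, 18.5 and 17.9 FPKM with DMAG and at 13.2, 12.6 and 11.9 FPKM in controls and rose 1.41-fold. STAT5A and STAT5B are near-identical in places, so the split of reads between them is uncertain. STAT2 rose 1.49-fold, a call its most abundant transcript did not give (log2 0.67, against 0.53 for the gene, adjusted p = 0.14 by limma). STAT6, the factor of IL4R, fell 1.20-fold, a call lost without any 1 library except control replicate 3.

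Of 33 adaptors, kinases and phosphatases 28 were tested, of which 13 rose and 5 fell (median 0.18), beside 48.6% called over all genes. GAB3 (1.98-fold), the insulin receptor substrate IRS2 (1.80-fold), PIK3CG (1.48-fold) and the lipid phosphatase INPP5D (1.45-fold) rose. PTPN6, a phosphatase that switches off EPOR and KIT, was at 37.4 ± 1.15 FPKM with DMAG and 54.7 ± 2.05 FPKM in controls and fell. Its most abundant transcript alone went the other way (log2 1.51, adjusted p = 0.33 by limma). PIK3CB, PIK3R2 and the adaptor CRKL fell 1.23-fold, 1.14-fold and 1.11-fold; the call of PIK3CB was lost without DMAG replicate 1 and that of PIK3R2 without control replicate 2.

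Of 25 feedback genes and targets of these receptors 22 were tested, of which 6 rose, 6 fell and 10 did not pass (median 0.02), beside 48.6% called over all genes. The 6 falls became 3 without DMAG replicate 1 or 3 or control replicate 1 or 3, and 4 without control replicate 2. CISH, a STAT5 target that damps cytokine signalling, was at 1.38, 1.25 and 1.48 FPKM with DMAG and at 1.57, 1.46 and 1.73 FPKM in controls (adjusted p = 0.21 by limma). SOCS2 was at 0.944, 1.13 and 0.701 FPKM with DMAG and at 1.48, 1.97 and 2.78 FPKM in controls and fell, a call lost without DMAG replicate 1 or 3 or control replicate 2. SOCS1 averaged 1.004 ± 0.133 FPKM with DMAG and 0.954 ± 0.278 FPKM in controls, and SOCS3 was at most 0.366 FPKM. PIM1, a kinase induced by STATs, was 1.68-fold higher, a call lost without any 1 library except DMAG replicate 1.

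The cytokine OSM, a STAT5 target, rose to 1.29 ± 0.0108 FPKM with DMAG, against 0.393 ± 0.154 FPKM in controls. BCL6 rose 2.29-fold, the survival gene MCL1 1.90-fold and TNFRSF13C 1.75-fold. CCND2, cyclin D2, fell to 72.2 ± 4.10 FPKM with DMAG, against 144 ± 0.751 FPKM in controls. PIM3 fell 1.35-fold, and SPRED1 1.26-fold, a call lost without any 1 library except control replicate 2.

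Of 16 transcription factors that act on receptor genes 10 were tested, of which 7 rose and 2 fell (median 0.34). Over all genes tested, 48.6% were called, 22.4% higher and 26.1% lower. GATA2, a factor of progenitors, mast cells and basophils, rose to 33.4 ± 2.66 FPKM with DMAG, against 19.0 ± 2.14 FPKM in controls. SPI1, the gene of PU.1, rose 1.24-fold, MYB 1.56-fold, CEBPB 1.42-fold and ETV6 1.35-fold. The most abundant transcripts of GATA2 and SPI1 did not pass by themselves (adjusted p = 0.067 and 0.084 by limma). Their log2 changes were 1.15, against 0.78 for the gene, for GATA2 and 0.23, against 0.30, for SPI1. CEBPA, which drives CSF3R in granulocyte precursors, was at 125 ± 3.03 FPKM with DMAG and 174 ± 7.45 FPKM in controls and fell. RUNX1 fell 1.13-fold, a call lost without any 1 library except control replicate 1.

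The small RNA libraries, which the choice of receptors did not use, held miRNAs reported to target KIT. The 2 most abundant of them are shown from RefSeq (GRCh38.p14), with the seed (bases 2 to 8) in capitals.
hsa-miR-221-3p: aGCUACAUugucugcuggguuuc
hsa-miR-222-3p: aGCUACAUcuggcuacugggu
These 2 share their seed and come from neighbouring hairpins on the minus strand of chromosome X (chrX:45746180-45746202 and chrX:45747036-45747056). hsa-miR-222-3p was at 10946, 10564 and 10118 CPM (counts scaled to library size after TMM normalisation) with DMAG and at 6166, 5252 and 6345 CPM in controls, and rose 1.78-fold (edgeR quasi-likelihood adjusted p = 6.0e-06). hsa-miR-221-3p was at 14322, 14317 and 12946 CPM with DMAG and at 10742, 9770 and 10472 CPM in controls, and rose 1.34-fold (edgeR adjusted p = 4.4e-04). Across 583 miRNAs tested 45.3% were called, 21.4% higher and 23.8% lower with DMAG.

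The partner arms of these hairpins moved the same way. hsa-miR-221-5p was at 2595, 2442 and 2545 CPM with DMAG and at 832, 544 and 850 CPM in controls, a 3.41-fold rise (edgeR adjusted p = 1.6e-06), and hsa-miR-222-5p rose 1.54-fold. The 5p arm of miR-221 thus differed more than its 3p arm, a difference that was not tested. hsa-miR-193a-5p was at 5.71 ± 1.94 CPM with DMAG and 3.51 ± 0.498 CPM in controls (edgeR adjusted p = 0.10). It passed without DMAG replicate 3 (edgeR adjusted p = 0.034), and its log2 change was 0.50 to 0.95 without 1 library at a time. hsa-miR-193a-3p, hsa-miR-193b-3p and hsa-miR-494-3p had at most 4 counts in any library and were not tested. With KIT at or under 0.194 FPKM in every library, a link between these miRNAs and KIT mRNA was not tested.

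**Figure D4:**
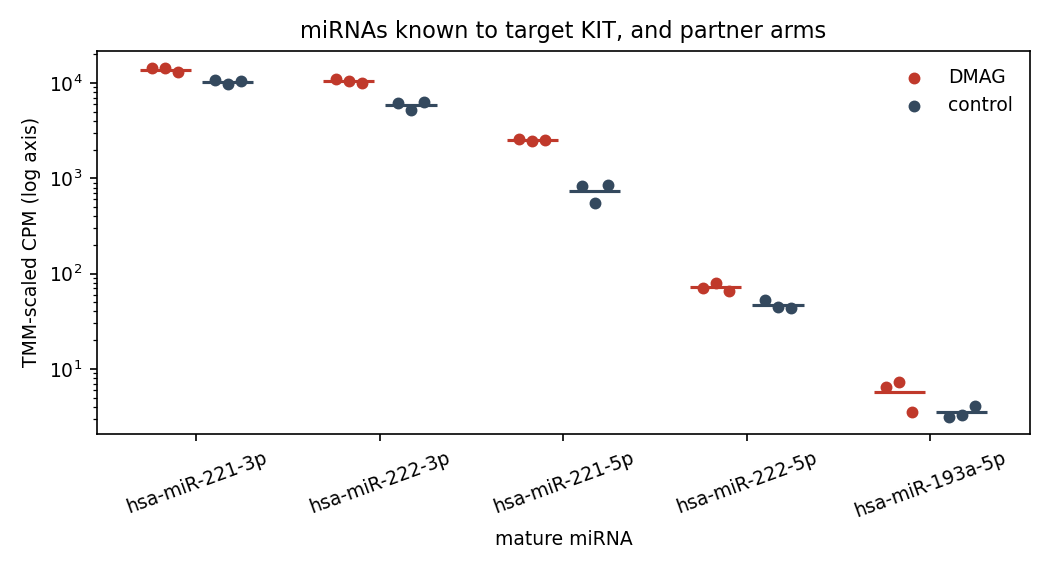
TMM-scaled CPM (log axis) of miRNAs known to target KIT and of their partner arms in the 3 DMAG small RNA libraries (red, left) and the 3 control libraries (dark, right); points are libraries and lines are means. Both arms of miR-221 and miR-222 lie higher with DMAG, hsa-miR-221-5p at 2442 to 2595 CPM against 544 to 850 CPM.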

How the data were processed

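The authors deposited FPKM values per transcript for mRNAs and read counts per mature miRNA; the file headers give no further processing. GRCh38, StringTie 1.3.3, Bowtie and HISAT2 2.0.4 are listed, without roles, per the submitters' processing notes; how reads were counted is not stated there. Per the labels' protocols, RNA-Seq libraries came from RNA depleted of ribosomal RNA.

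Transcript FPKM was added up for each gene. Genes averaging 0.5 FPKM or more over all libraries entered a limma 3.58.1 fit (mean trend, R 4.3.3) of log2(FPKM + 1). miRNA counts, 4303596 to 6003077 per library, were tested with edgeR 4.0.16 (quasi-likelihood, TMM, filterByExpr with a minimum count of 10), and DESeq2 1.42.0 served as an alternative. P-values were adjusted by Benjamini-Hochberg over each table and called under 0.05; they measure only the spread between these samples. The steps were tested on simulated data. The receptors and gene lists were chosen with earlier results of these data known. Beyond the receptors, up to 4 called rises and falls per list were named, among genes with a mean of 1 FPKM or more in at least 1 group, with key partners, kinases and ligands whatever their result. The lncRNA and circular RNA tables were not used here.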

Additional observations from a re-analysis of the deposited data

How the results depend on the processing

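IL9R and CSF2RB were lower with DMAG under all 12 alternatives run for them, with log2 changes of -3.51 (pseudocount 0.1 FPKM) to -2.27 (most abundant transcript) for IL9R and -0.42 to -0.31 for CSF2RB. CSF3R (0.08 to 0.32) and EPOR (0.03 to 0.27) had log2 changes above 0 throughout, with the lowest values from the most abundant transcript alone, but lost their calls there, with no filter on low values, with the replicate block (adjusted p = 0.080 and 0.058 by limma) and without most single libraries, and IL5RA stayed higher in the 8 alternatives that gave it a value (0.58 to 1.92).

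Taking only the most abundant transcript of each gene, which changes the number of genes tested, left 3354 calls in place of 5050 over all genes, 0 in place of 5 for other receptor tyrosine kinases, 4 in place of 7 for JAKs and STATs and 6 in place of 12 for feedback genes. It turned IGF1R to 0.024 and PTPN6 to 1.51 on the log2 scale. Without a filter on low values 3 of 10 ligands tested were called, beside 33.4% called over all genes in that fit. Without 1 library at a time, all genes gave 4224 to 4593 calls, other cytokine receptors 13 to 15, other receptor tyrosine kinases 4 to 5, JAKs and STATs 5 to 6, adaptors 14 to 18, feedback genes 8 to 10, transcription factors 8 to 9 and miRNAs 202 to 259. There, uncalled genes changed sign: CSF2RA ranged over -0.0994 to 0.0199 (above 0 without DMAG replicate 1) and IL3RA over -0.0898 to 0.0246, and among the pathway genes TYK2 ranged over -0.0029 to 0.205, KITLG over -0.0020 to 0.0738 and SOCS1 over -0.018 to 0.158, the last 3 below 0 without DMAG replicate 2 for TYK2, control replicate 2 for KITLG and control replicate 1 or 2 for SOCS1.

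The labels number the replicates alike in both groups. Same-numbered mRNA libraries showed no clear shared deviation (r of -0.0048 to 0.043), so no pairing by number was seen. These values cannot exclude a weak pairing. With the replicate block, 7 in place of 12 feedback genes were called, 2 of the 7 as falls in place of 6, with 4491 genes in all and 247 miRNAs; JAK2, ERBB2, SOCS2, PIM1, SPRED1 and RUNX1 lost their calls. In the fit of the most abundant transcripts, STAT6, SOCS2, PIM1, SPRED1 and RUNX1 lost theirs too, and with no filter STAT6, PIM1 and SPRED1 did. PIM1 has 1 transcript, so its log2 change of 0.42 stayed the same and only its adjusted p moved. The log2 change of RUNX1 was -1.13 in that transcript, against -0.18 for the gene. The cause of these shifts was not tested. The depth of the RNA-Seq libraries is unknown, so values near 0 FPKM, such as those of KIT and CSF1R, carry no limit of detection.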
